A study of Homo sapiens with 24 samples.

Results

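The effect of a FOXA1 siRNA was measured in SCaBER cells in which ZBED2 was also targeted. SCaBER is an established human bladder cancer line of the basal/squamous (Ba/Sq) subtype. The comparison was chosen from the labels alone, as all SCaBER libraries that received a ZBED2 siRNA, and holds 8 of the 24 libraries of the series. Of these, 4 received a ZBED2 siRNA only (siZBED2-1 in 2 libraries and siZBED2-2 in the other 2) and 4 received the FOXA1 siRNA (siFOXA1) together with siZBED2-1 (2 libraries) or siZBED2-2 (2 libraries). All 8 were grown in the same medium with serum and transfected in a lipid reagent, and RNA was taken within 72 h. Another 4 SCaBER libraries without a ZBED2 siRNA (siControl or siFOXA1 alone, 2 each) were used only for the spread between replicates and to show where the ZBED2-depleted cells differed.

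A single FOXA1 siRNA, number 1 in the labels, was used in every library that received one, so loss of FOXA1 and any other effect of that siRNA cannot be told apart. The libraries with siFOXA1 also received 1 more siRNA than those they were compared with. Whether a control siRNA made up the difference is not given in the sources used here, and siFOXA1 and the number of siRNAs cannot be told apart. The labels do not say that replicates came from separate cultures, so p-values measure the spread between these libraries, which may be technical. In bulk RNA, fewer cells that express a gene and less of its RNA per cell cannot be told apart.

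FOXA1 is a forkhead transcription factor that opens chromatin and maintains luminal urothelial identity, and it is usually low in basal/squamous bladder cancer. ZBED2 is a zinc finger transcription factor with high expression in basal epithelial tumours. Cells sense foreign or misplaced nucleic acid through RNA and DNA sensors, secrete interferon, and signal through the receptor and JAK kinases to transcription factors such as STAT2 and IRF9. These bind a short DNA element in the promoters of interferon-stimulated genes, whose products block viral replication, present antigen and attract immune cells. The comparison asks what reducing FOXA1 does to this and other programmes when ZBED2 is reduced as well.

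The 8 libraries held 4736070 to 6119210 counted reads, with at least 1 read in 14946 to 15592 genes. Expression is given below as CPM (reads scaled to a common library total), and finding no read of a gene allows a level of up to 3 counts, worth 0.48 to 0.636 CPM. Mitochondrial reads took 9.295 to 11.75% of the total with siFOXA1 and 9.55 to 11.98% without it. The basal markers were present in every library, KRT5 at 725 to 1065 CPM with siFOXA1 and at 881 to 1054 CPM without it, and 9 of 9 passed the filter on low counts. Their summed level was 5336 to 7112 CPM with siFOXA1 and 4874 to 6618 CPM without it. Of 6 luminal markers, UPK1A, UPK3A and KRT20 were at 0 counts in all libraries, and the summed level of the set was 26.3 to 44.6 CPM with siFOXA1 and 26.8 to 42.5 CPM without it. Of 18 markers of fibroblasts, endothelium, leukocytes and other cell types, 4 passed the filter. At most 3 counts in every library were held by 7, of which 5 were at 0. The rest missed the filter but exceeded 3 counts in at least 1 library. The summed level of the 18 was 31.9 to 38.8 CPM with siFOXA1 and 22.3 to 40.4 CPM without it.

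In the sentences below, values of the libraries without siFOXA1 come first. Each set of 4 is in the order siZBED2-1 replicates 1 and 2, then siZBED2-2 replicates 1 and 2. FOXA1 (ENSG00000129514, chr14:37589552-37595249) is low in SCaBER and was counted at 14, 1, 25 and 20 reads without siFOXA1 and at 0, 1, 3 and 2 reads with it, which is 2.80, 0.184, 4.62 and 3.20 CPM against 0, 0.212, 0.605 and 0.419 CPM. The library labelled siZBED2-1 replicate 2 had a single FOXA1 read and overlapped the libraries with siFOXA1, while the other 3 without siFOXA1 were above all 4 with it. FOXA1 fell by 3.23 on the log2 scale (SE 1.05, edgeR quasi-likelihood test, Benjamini-Hochberg adjusted p = 0.0429). The pooled counts, 60 against 6, gave a ratio, scaled to library size, of 8.99 (95% exact interval 3.897 to 25.5, counting error only). The call rests on few reads and was lost in 11 of 18 alternative analyses, with a change of -1.80 and an adjusted p of 0.524 without siZBED2-1 replicate 1. In cells without a ZBED2 siRNA, 48 reads in siControl and 10 with siFOXA1 gave a ratio of 4.34 (2.17 to 9.62). FOXA2, the closest paralog of FOXA1, was counted at 47, 51, 18 and 28 reads without siFOXA1 and 5, 10, 24 and 16 reads with it, and its change of -1.28 did not pass the test (adjusted p = 0.177).

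ZBED2 (ENSG00000177494, chr3:111592900-111595346) was at 19.1 and 19.2 CPM in siControl, at 2.40, 7.34, 8.86 and 16.0 CPM in the ZBED2-depleted libraries without siFOXA1, and at 3.69, 1.70, 9.88 and 11.9 CPM in those with it. All 8 were below siControl, but siZBED2-2 replicate 2 was close to it, and the 4 with siZBED2-1 were below the 4 with siZBED2-2. The libraries with and without siFOXA1 overlapped, and the ZBED2 change of -0.52 (SE 0.34) did not pass the test (edgeR, adjusted p = 0.391). Since siZBED2-1 replicate 2 has few FOXA1 reads and siZBED2-2 replicate 2 retains much of its ZBED2, counts are also given without these 2 libraries (called the 2 doubted libraries below) for the comparisons and for most gene lists, a choice made after seeing the data.

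Of 13129 genes with enough reads to be tested, 1331 (10.1%) changed with siFOXA1 in ZBED2-depleted cells at an adjusted p under 0.05. Of these, 688 were higher (5.24% of genes tested) and 643 were lower (4.9%), and 271 (2.06%) differed by at least 2-fold. The median change over all tested genes was -0.0013 on the log2 scale. The 4 libraries with siFOXA1 did not overlap the 4 without it for 1496 genes (11.4%), 757 higher (5.77%) and 739 lower (5.63%). Without siZBED2-1 replicate 2 and siZBED2-2 replicate 2, 670 genes were called, 626 of which were among the 1331. Without siZBED2-1 replicate 2 alone the count was 852, and it was 793 without siFOXA1+siZBED2-1 replicate 1 and 873 without siFOXA1+siZBED2-2 replicate 2. All 1331 kept their sign in every alternative analysis of this comparison, which reuses the same libraries the genes were called in.

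Interferon-stimulated genes led the genes that were higher. Among the called genes with at least a 2-fold change and no overlap between libraries, 11 of the 12 with the smallest p belonged to the antiviral or RNA sensor lists, with ADAM8, a membrane metalloprotease, as the exception. The 12 changed by 1.02 to 3.14 on the log2 scale, with adjusted p-values of at most 3.92e-10. ISG15 (ENSG00000187608, chr1:1013497-1014540), a ubiquitin-like protein that is attached to viral and host proteins, was at 169, 244, 258 and 288 CPM without siFOXA1 and at 874, 951, 674 and 811 CPM with it. The lowest library with siFOXA1 was thus above the highest without it, and the rise was 3.46-fold (log2 1.79, SE 0.11, adjusted p = 2.13e-13). IFIH1 (MDA5, ENSG00000115267, chr2:162267074-162318684), a cytosolic sensor of long double-stranded RNA, was at 43.99, 45.9, 45.04 and 52.7 CPM without siFOXA1 and at 152, 136, 133.5 and 156 CPM with it. Values were tight on both sides and did not overlap (log2 1.62, SE 0.12, adjusted p = 1.48e-11).

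MX1 (ENSG00000157601, chr21:41420558-41459214) and MX2 (ENSG00000183486, chr21:41362027-41409393) are neighbouring genes for dynamin-like GTPases that block viral particles. MX1 was at 50.4, 93.8, 55.0 and 67.9 CPM without siFOXA1 and at 330, 354, 177 and 395 CPM with it, the lowest of these being siFOXA1+siZBED2-2 replicate 1. Its log2 change was 2.23 (SE 0.17, adjusted p = 2.83e-11). MX2 was at 6.60, 15.05, 4.615 and 3.04 CPM without siFOXA1 and at 66.15, 76.8, 31.25 and 59.9 CPM with it, again without overlap and with siFOXA1+siZBED2-2 replicate 1 the lowest. It had the largest log2 change of the 12, at 3.14 (SE 0.26, adjusted p = 8.87e-11). The others were IFI44L (log2 change 2.69), IFI6 (2.68), the exonuclease ISG20 (1.92), IFIT1, which binds foreign RNA ends (1.86), OAS2, which makes the activator of RNase L (1.84), XAF1 (1.76), and HELZ2 (1.39).

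**Figure D1:**
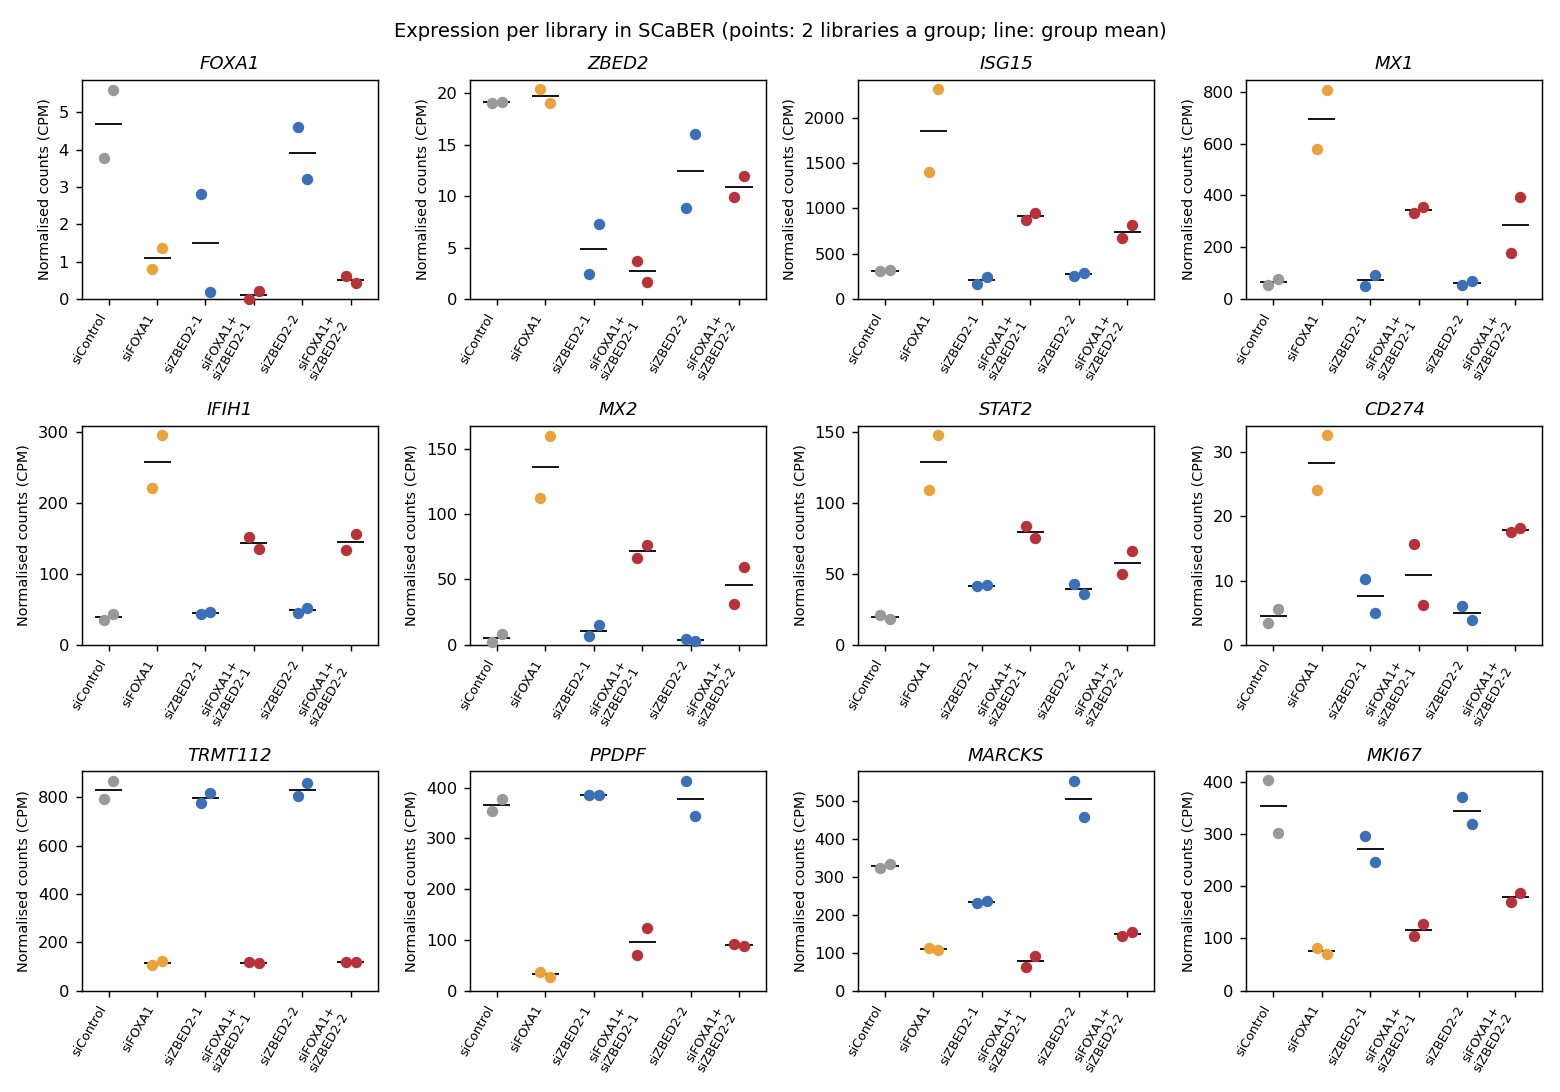
Expression in CPM (linear axes from 0) of 12 genes in the 6 SCaBER groups, where each point is 1 of the 2 libraries of a group and each line is their mean. ISG15, MX1 and IFIH1 lie higher in every siFOXA1 library than in every library without it, TRMT112 falls to 113 to 118.5 CPM in the 4 ZBED2-depleted libraries with siFOXA1, and STAT2 stands at 35.6 to 42.6 CPM with a ZBED2 siRNA alone against 18.2 and 21.2 CPM in siControl.

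Many of these genes, but not all, hold a match to the interferon-stimulated response element, which STAT2 and IRF9 act through, in the promoter. It was searched here as a pair of GAAA repeats set 2 bases apart, on both strands from 250 bases before to 50 bases after the RefSeq start (GRCh38.p14). Windows of 30 bases are shown for the 6 genes with the smallest p that held a match before the start, 5′ to 3′ on the strand of the gene, with the match in capitals. They were chosen for holding the match, so the likeness of the capitals was set by the search, and they are shown for where the element lies and for the bases around it. The other leading genes are not shown.
ISG15: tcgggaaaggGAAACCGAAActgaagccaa
IFIH1: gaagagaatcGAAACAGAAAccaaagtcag
IFI6: gcagagtgcaGAAATAGAAActccgacagg
IFI44L: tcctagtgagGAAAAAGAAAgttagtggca
ISG20: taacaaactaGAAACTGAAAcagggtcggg
IFIT1: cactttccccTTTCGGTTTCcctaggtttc
These lie at chr1:1013380-1013409 on the plus strand (ISG15), chr2:162318686-162318715 on the minus strand (IFIH1), chr1:27672266-27672295 on the minus strand (IFI6), chr1:78620365-78620394 on the plus strand (IFI44L), chr15:88638937-88638966 on the plus strand (ISG20) and chr10:89392510-89392539 on the plus strand (IFIT1). The match begins 107 bases before the start in ISG15, 21 in IFIH1, 93 in IFI6, 73 in IFI44L, 69 in ISG20 and 103 in IFIT1, where it reads on the opposite strand.

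A promoter was matched for 9417 of the 13129 tested genes. The element was found in 28 of 44 (63.64%) called-higher members of the interferon lists. Of all members of these lists, called or not, 32 of 64 (50%) held it. It was in 9.36% of all called-higher genes (51 of 545), in 1.88% of called-lower genes (9 of 479) and in 2.87% of all tested genes. Over all 27305 promoters of the table the share was 3.65%. Called-higher genes outside these lists held it in 4.59%. A forkhead element, TGTTTAC, was found in 1.83% of called-higher promoters, 1.88% of called-lower promoters and 2.27% of all tested promoters. These shares describe letters in a window, not binding.

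Among the 52 tested antiviral effectors, 46 were higher and 0 were lower, against 5.24% and 4.9% of all genes. Their median log2 change was 1.02, 51 of 52 changes were positive, 27 called members exceeded 2-fold, and 34 members did not overlap between the libraries with and without siFOXA1. Over all genes, 2.06% were called at 2-fold or more in either direction and 5.77% were higher without overlap. The 6 that did not pass the test were IFI16, UBA7, PARP12, PARP10, IFIT5 and APOL6. Without siZBED2-1 replicate 2 and siZBED2-2 replicate 2, 38 members were called, and 29 were called with limma on TPM. Relative to the siControl mean, the median member stood between -0.12 and 0.15 (log2) in the 4 libraries with a ZBED2 siRNA alone. It stood at 1.09 and 1.13 in siFOXA1+siZBED2-1, at 0.62 and 1.16 in siFOXA1+siZBED2-2, and at 1.60 and 1.91 with siFOXA1 alone.

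Of 19 interferon signalling factors, 6 rose (31.58%, against 5.24% of all genes) and 0 fell, with a median change of 0.23. Among them were USP18, a protease that removes ISG15 and damps the receptor (2.19), IRF9 (1.65), IRF7 (1.60), IRF2 (0.76) and STAT2 (0.75). The receptor chain IFNAR1 (-0.10), the kinase JAK1 (-0.29) and IRF1 (-0.24) did not pass the test.

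STAT2 was at 41.4, 42.2, 42.6 and 35.6 CPM without siFOXA1 and at 83.7, 75.3, 49.8 and 66.2 CPM with it. All 4 libraries with siFOXA1 were above the others, by the narrowest margin in siFOXA1+siZBED2-2 replicate 1. Its log2 change was 0.75 (SE 0.14, adjusted p = 0.000497), made of 0.93 on siZBED2-1 (adjusted p = 0.0039) and 0.57 on siZBED2-2 (adjusted p = 0.14). IRF9 was at 3.80, 6.97, 1.66 and 2.24 CPM without siFOXA1 and at 9.03, 21.2, 11.3 and 2.72 CPM with it. Here the groups overlapped, because siFOXA1+siZBED2-2 replicate 2 stayed low. The IRF9 change of 1.65 (SE 0.43) had an adjusted p of 0.00962, and 5 of 18 alternatives lost the call, with adjusted p-values up to 0.231. IRF7 lost its call in 5 of 18, up to an adjusted p of 0.13.

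Of 15 sensors and adaptors for foreign nucleic acid, 5 rose (33.33%, against 5.24% of all genes) and 0 fell, with a median of 0.39. These were ZBP1, IFIH1, the RNA-activated kinase EIF2AK2 (PKR, 0.87), the adaptor TICAM1 (0.80) and DDX58 (RIG-I, 0.80). ZBP1, a sensor of Z-form nucleic acid, had 0 reads in all 4 libraries without siFOXA1 and 19, 27, 5 and 22 reads with it, which is at least 6.79-fold higher against the limit of 3 counts per library. The TICAM1 call was lost in 7 of 18 alternatives, with adjusted p-values up to 0.171. Without the 2 doubted libraries 4 sensors and 6 signalling factors were called. The mitochondrial adaptor MAVS (-0.11) and the endosomal receptor TLR3 (0.31) did not pass the test. Of the interferon genes themselves, only IFNL1, an epithelial type III interferon, passed the filter. It was counted at 2, 8, 0 and 12 reads without siFOXA1 and 31, 37, 17 and 13 reads with it, and its change of 2.21 (SE 0.75) did not pass the test (adjusted p = 0.055).

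Ligands that engage T and NK cells rose in 6 of 12 cases (50%, against 5.24% of all genes) and fell in 0. Their median was 0.55. LGALS9 (galectin-9, a ligand of TIM-3, 1.86), CD274 (PD-L1, 1.19), PDCD1LG2 (PD-L2, 1.19), ICAM1 (the ligand of LFA-1, 0.88), PVR (0.55) and NECTIN2 (0.47) made up this number. CD274 was at 10.2, 4.955, 6.09 and 3.84 CPM without siFOXA1 and at 15.7, 6.15, 17.5 and 18.2 CPM with it. The groups overlapped, since siFOXA1+siZBED2-1 replicate 2 lay below siZBED2-1 replicate 1. The CD274 change was 1.19 (SE 0.32, adjusted p = 0.0132), with 0.54 on siZBED2-1 (adjusted p = 0.607) and 1.85 on siZBED2-2 (adjusted p = 0.0179). Those values did not pass the test of their difference (1.31, adjusted p = 0.669). The CD274 call was lost in 6 of 18 alternatives, among them leaving out siFOXA1+siZBED2-1 replicate 1 (0.78, adjusted p = 0.211), siZBED2-1 replicate 2 (0.98, adjusted p = 0.097) or siZBED2-2 replicate 2 (1.05, adjusted p = 0.0717). ICAM1 lost its call in 4 of 18 and PDCD1LG2 in 3, and 5 ligands were called without the 2 doubted libraries.

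Antigen presentation by MHC class I moved less. Of 18 genes, 4 rose (22.22%, against 5.24% of all genes) and 0 fell, with a median of 0.25. The 4 were HLA-F (0.91), the proteasome activator PSME2 (0.45), and the chaperones CALR (0.28) and PDIA3 (0.28). B2M, the constant light chain, changed by 0.41 (SE 0.18) and did not pass the test, and the transporters TAP1 and TAP2 were below the filter. On siZBED2-1 3 members were called higher and the median was 0.33, while on siZBED2-2 0 were called and the median was 0.06. Of all genes, 3.05% and 1.65% were called higher there. The PDIA3 call was lost in 10 of 18 alternatives (adjusted p up to 0.339), PSME2 in 6, HLA-F in 5 and CALR in 2, and 2 members were called without the 2 doubted libraries. Reads of HLA genes can be split among near-identical copies and are uncertain.

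Among 21 chemokines and cytokines, 6 rose (28.57%, against 5.24% of all genes) and 1 fell (4.76%, against 4.9%), with a median of 0.40. IL11, a cytokine of the IL-6 family, rose most, from a mean of 1.61 to 13.8 CPM (log2 3.09, adjusted p = 1.55e-07). It was followed by IL24 (1.54), the T-cell attractants CXCL11 (1.40) and CXCL10 (1.34), IL32 (0.69) and IL1B (0.47). The CXCL10 call was lost in 6 of 18 alternatives, with adjusted p-values up to 0.169. CXCL8, the main neutrophil attractant, fell by 0.87 on the log2 scale. Without the 2 doubted libraries 5 members were called. Genes of NF-kB signalling showed no such direction. Of 17, CYLD rose (0.54, lost in 6 of 18 alternatives), BCL3 (-0.61) and BIRC3 (-0.41) fell, and the median was 0.06. By share, 5.88% rose and 11.76% fell, against 5.24% and 4.9% of all genes.

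**Figure D2:**
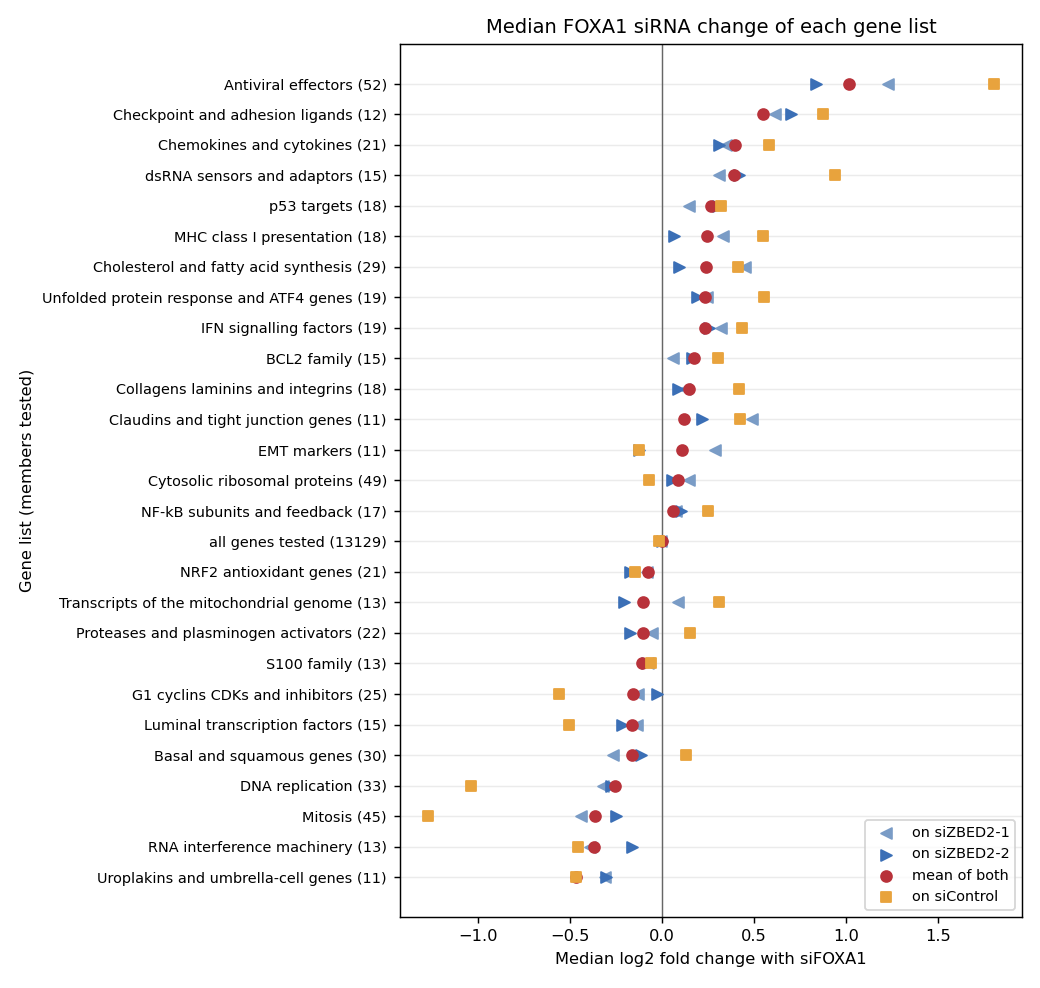
Median log2 change with siFOXA1 of each gene list with at least 10 tested members, given on siZBED2-1, on siZBED2-2, as their mean, and on siControl. Antiviral effectors stand at 1.23, 0.84, 1.02 and 1.80, and the replication and mitosis lists fall far lower on siControl (-1.04 and -1.27) than in the ZBED2-depleted cells (-0.25 and -0.37).

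The genes with the strongest evidence of a fall were of varied function. The 12 with the smallest p, at least a 2-fold change and no overlap fell by 1.05 to 3.23 on the log2 scale, with adjusted p-values of at most 7.22e-11. TRMT112 (ENSG00000173113, chr11:64316460-64318596), the activating partner of several RNA and protein methyltransferases, was at 778, 817, 806 and 858 CPM without siFOXA1 and at 118.5, 113, 118 and 118 CPM with it. The means were 815 ± 33.1 CPM and 117 ± 2.53 CPM (SD, n = 4 each), so the gap was many times the spread between libraries. It had the smallest p of all genes (log2 -2.80, SE 0.09, adjusted p = 2.53e-22), with -2.78 on siZBED2-1 and -2.82 on siZBED2-2.

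PPDPF (ENSG00000125534, chr20:63520741-63522206), a small protein first described in pancreas development, was at 386, 386, 413 and 344 CPM without siFOXA1 and at 69.5, 123, 91.1 and 87.1 CPM with it. All libraries with siFOXA1 were far below the rest (log2 -2.05, SE 0.12, adjusted p = 1.11e-13). MARCKS (ENSG00000277443, chr6:113857345-113863475), an actin-binding substrate of protein kinase C, was at 232, 236, 553 and 456 CPM without siFOXA1 and at 62.8, 92.0, 145 and 155 CPM with it. Its level was higher with siZBED2-2 than with siZBED2-1 on both sides, and the change of -1.67 (SE 0.11, adjusted p = 2.13e-13) separated them in each. NSA2 (ENSG00000164346, chr5:74767249-74780113), a factor of 60S ribosomal subunit assembly, was at 902, 902, 760 and 844 CPM without siFOXA1 and at 319, 373, 399 and 404 CPM with it (log2 -1.19, SE 0.08, adjusted p = 6.03e-13). No library crossed between the groups.

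The other 8 were CHCHD10, a mitochondrial intermembrane protein (-3.23), the zinc transporter SLC39A6 (-1.79), ID1, an inhibitor of bHLH factors (-1.67), TMEM123 (-1.67), FIBP (-1.37), the poly(A)-binding protein PABPC4 (-1.36), the chromatin protein HMGA2 (-1.22) and the septin SEPT7 (-1.05). All 24 genes, the 12 higher and the 12 lower, stayed past the threshold in each of the 18 alternative analyses, with adjusted p-values up to 0.00436. They were chosen for their small p in the same libraries that the alternatives refit, so a weak check is all this gives.

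Cell cycle genes were lower in part. Of 45 tested genes of mitosis, 18 fell (40%, against 4.9% of all genes) and 0 rose, with a median of -0.37. MKI67, the proliferation marker Ki-67, was at 297, 245, 370 and 318 CPM without siFOXA1 and at 104.5, 128, 169 and 187 CPM with it. Its groups did not overlap, and it fell by 1.09 on the log2 scale (adjusted p = 4.11e-09). Cyclin A2 (CCNA2, -0.86), the spindle motor KIF11 (-0.80) and the mitotic transcription factor FOXM1 (-0.74) also fell. Of 33 genes of DNA replication, 5 fell (15.15%, against 4.9% of all genes) and 0 rose, with a median of -0.25. These were the polymerase subunit POLE2 (-1.51), thymidylate synthase TYMS (-1.32), RRM2 (-0.80), the sliding clamp PCNA (-0.61) and RFC3 (-0.47). The POLE2 call was lost in 5 of 18 alternatives and the PCNA call in 4.

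These counts depended on the libraries more than those of the antiviral genes. Without siZBED2-1 replicate 2 and siZBED2-2 replicate 2, 9 mitosis and 3 replication genes were called, and 11 mitosis genes were called without siZBED2-1 replicate 1 or without siFOXA1+siZBED2-1 replicate 1. On siZBED2-1, 15 mitosis genes fell (median -0.44) against a background of 2.73% of genes called lower, and on siZBED2-2 2 fell (median -0.25) against 1.38%. The TTTGAA core of the cell cycle homology region was found in the promoters of 12 of 21 (57.14%) called-lower replication and mitosis genes. Among all members of these lists, called or not, 26 of 66 (39.39%) held it. It was in 15.24% of all called-lower genes and in 9.6% of tested genes. The E2F element (TTTGGCGC or TTTCGCGC) was found in 4.76% of the called-lower members, against 15.15% of all members. Of 25 genes of G1 control, 2 rose, the CDK inhibitor CDKN1A (p21, 0.58) and CDK6 (0.35), and 3 fell, cyclin E2 (CCNE2, -0.91), SKP2 (-0.65) and CDKN3 (-0.57). These are 8% and 12% of the list, against 5.24% and 4.9% of all genes. The CCNE2 call was lost in 9 of 18 alternatives, CDK6 in 7 and CDKN3 in 6 (adjusted p up to 0.108, 0.223 and 0.159), and 2 members were called without the 2 doubted libraries.

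**Figure D3:**
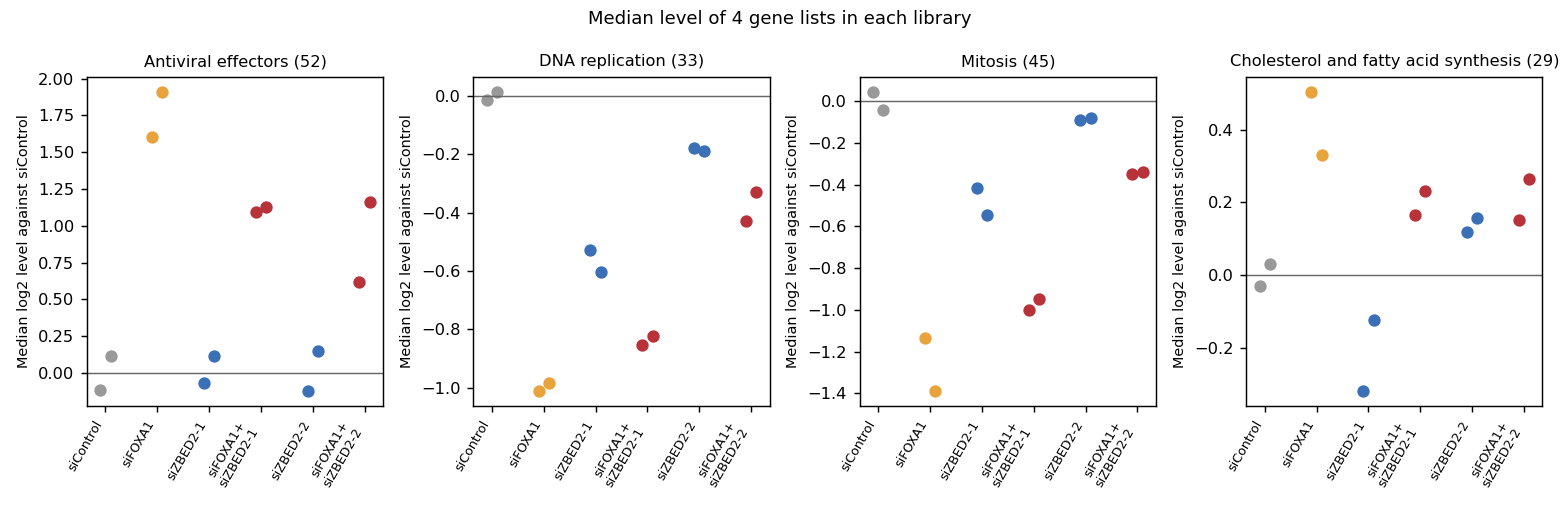
Median log2 level against the siControl mean in each SCaBER library (1 point each), for antiviral effectors, DNA replication, mitosis and cholesterol synthesis genes. Mitosis genes stand at -0.42 and -0.54 with siZBED2-1 and at -1.0006 and -0.95 once siFOXA1 is added, but at -0.09 and -0.08 with siZBED2-2 and at -0.35 and -0.34 once siFOXA1 is added.

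Genes of luminal and basal identity were called in both directions. Of 15 luminal transcription factors, 4 fell, FOXA1 itself and the epithelial factors EHF (-1.45), FOXQ1 (-1.14) and KLF5 (-0.85), and KLF4 rose (0.51). GATA3 (0.21) and PPARG (0.09), which define the luminal state with FOXA1, did not pass the test. Of 11 uroplakins and luminal keratins, only KRT18 was called (-0.47), or 9.09% lower against 4.9% of all genes. Basal and squamous genes went both ways. Of 30, KRT6B (0.99), KRT17 (0.69) and the laminin chain LAMB3 (0.46) rose, and 6 fell, the squamous serpins SERPINB3 (-1.93) and SERPINB4 (-1.42), KRT13 (-1.46), ITGA6 (-0.45), LAMA3 (-0.36) and COL17A1 (-0.21). Shares of the basal list were 10% higher and 20% lower, and of the luminal factors 6.67% and 26.67%, against 5.24% and 4.9% of all genes. The 26.67% includes FOXA1, which the siRNA targets and whose call was lost in 11 of 18 alternatives. The SERPINB4 call was lost in 7 of 18 alternatives (adjusted p up to 0.172), KRT13 in 6 (up to 0.301) and KLF4 in 7 (up to 0.241). Without the 2 doubted libraries 6 basal genes and 3 luminal factors were called.

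Of 13 S100 genes, 3 fell (23.1%) and 1 rose (7.69%), against 4.9% and 5.24% of all genes. S100A7 (psoriasin) was counted at 8, 29, 34 and 28 reads without siFOXA1 and at 3, 0, 1 and 1 with it. No library overlapped, and the pooled 99 against 5 reads gave a ratio, scaled to library size, of 17.8 (95% exact interval 7.38 to 56.0, counting error only). The calprotectin subunits S100A9 (-1.21) and S100A8 (-1.02) fell as well, and S100A16 rose (0.50). The S100A7 call was lost in 2 of 18 alternatives and that of S100A8 in 1, and 3 S100 genes were called without the 2 doubted libraries. Of 11 claudins and junction genes, CLDN4 (0.60), F11R (0.56) and CLDN7 (0.46) rose and CLDN1 fell (-0.30). Their shares were 27.27% and 9.09%, against 5.24% and 4.9% of all genes. The CLDN1 call was lost in 11 of 18 alternatives (adjusted p up to 0.378) and that of CLDN7 in 5, and 2 junction genes were called without the 2 doubted libraries. Of 11 genes of epithelial-mesenchymal transition, FN1 rose (0.76) and TGFBI fell (-0.47), with 0 called without the 2 doubted libraries. That is 9.09% each way, near the 5.24% and 4.9% of all genes.

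Among 22 extracellular proteases and their receptors, ADAM8 (1.02), the urokinase receptor PLAUR (0.98), MMP14 (0.72) and ADAM17 (0.43) rose, and the collagenase MMP1 (-1.10), MMP3 (-0.86) and ADAM10 (-0.30) fell. Rises took 18.18% of the list and falls 13.64%, against 5.24% and 4.9% of all genes. The ADAM10 call was lost in 13 of 18 alternatives (adjusted p up to 0.393), MMP3 in 9 (up to 0.199), ADAM17 in 6 and MMP1 in 4, and 3 members were called without the 2 doubted libraries. Of 18 collagens and integrins, ITGA5 (0.66) and ITGB6 (0.58) rose (11.1%, against 5.24% of all genes) and ITGA2 fell (-0.37, 5.56% against 4.9%), shares near those of all genes. The ITGA2 call was lost in 3 of 18 alternatives.

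Of 29 genes of cholesterol and fatty acid synthesis, 11 rose (37.93%) and 1 fell (3.45%), against 5.24% and 4.9% of all genes. The median was 0.24, and 26 changes were positive. The sterol transfer protein STARD4 (0.84), INSIG1, which retains the sterol sensor in the endoplasmic reticulum (0.75), IDI1 (0.63) and ACLY (0.59) rose, and the desaturase FADS1 fell (-0.94). On siZBED2-1 12 members rose (3.05% of all genes did) and the median was 0.45. On siZBED2-2 1 rose (1.65% of all genes did) and the median was 0.09. No member passed the test of the difference between the ZBED2 siRNAs. The IDI1 call was lost in 8 of 18 alternatives (adjusted p up to 0.277), and 9 members were called without the 2 doubted libraries.

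Of 19 genes of the unfolded protein and amino acid response, 6 rose, among them CTH (0.91), SESN2 (0.89), SDF2L1 (0.60) and HERPUD1 (0.44), and 2 fell, PHGDH (-0.66) and the chaperone HSPA5 (-0.55). Rises took 31.58% of this list and falls 10.53%, against 5.24% and 4.9% of all genes. The HERPUD1 call was lost in 10 of 18 alternatives (adjusted p up to 0.197), PHGDH in 6 and CTH in 3. Without the 2 doubted libraries 4 members were called. Of 18 p53 targets, 4 rose and 0 fell, namely BBC3 (PUMA, 0.79), RRM2B (0.78, lost in 6 of 18 alternatives), CDKN1A (0.58) and GADD45A (0.42). For the p53 targets this is 22.22% higher, against 5.24% of all genes. Among 15 BCL2 family genes the killers BBC3 and PMAIP1 (NOXA, 0.68) rose, whereas BAK1 (-1.14) and BAD (-0.47) fell. That is 13.33% each way, against 5.24% and 4.9% of all genes. Of 21 NRF2 targets and regulators, OSGIN1 (0.89) and ME1 (0.42) rose and NFE2L2 (NRF2 itself) fell (-0.46). These are 9.52% and 4.76% of the list, near the 5.24% and 4.9% of all genes, and the ME1 call was lost in 13 of 18 alternatives (adjusted p up to 0.508) and the OSGIN1 call in 10 (up to 0.206).

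The RNA interference machinery was also examined, since the groups differ in the number of siRNAs. Of 13 genes, 4 fell (30.77%, against 4.9% of all genes) and 0 rose, with a median of -0.37. Those that fell were DROSHA (-0.63), TNRC6A (-0.46), and AGO2 and DICER1 (-0.38 each). The AGO2 call was lost in 9 of 18 alternatives (adjusted p up to 0.183) and the DICER1 call in 10 (up to 0.267), and 2 members were called without the 2 doubted libraries. With siFOXA1 against siControl, 4 of the 13 also fell and 0 rose, with a median of -0.46, where 9.12% of all genes fell. By the labels, the sides of that comparison did not differ in the number of siRNAs. Whether the lower level of these genes bears on the other changes was not tested. Of 49 ribosomal protein genes 7 rose (14.29%, against 5.24% of all genes) and 3 fell (6.12%, against 4.9%). Of these, 6 were called without the 2 doubted libraries. Among 13 mitochondrially encoded genes 0 were called.

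The ZBED2 siRNAs gave different numbers of calls for the same FOXA1 siRNA. On siZBED2-1, 759 genes (5.78%) changed, 401 higher (3.05%) and 358 lower (2.73%). On siZBED2-2, 398 (3.03%) changed, 217 higher (1.65%) and 181 lower (1.38%), or 641 when the replicate number was added as a block. These comparisons share no library, and 222 genes were called in both, 29.2% of the first and 55.8% of the second list, 221 of them in the same direction. Of the 759, 694 (91.4%) had the same sign on siZBED2-2, and of the 398, 367 (92.2%) had the same sign on siZBED2-1. Taken in the direction of the call, the 759 had a median log2 change of 0.83 on siZBED2-1 and 0.47 on siZBED2-2, and the 398 had 0.85 on siZBED2-2 and 0.62 on siZBED2-1. A list has its larger median in the comparison it was called in by construction.

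Tested directly, the FOXA1 siRNA change differed between siZBED2-1 and siZBED2-2 for 5 genes (0.0381% of genes tested), against 974 at an unadjusted p under 0.05. With the replicate block the number was 32, with DESeq2 25, and without siZBED2-1 replicate 2 and siZBED2-2 replicate 2 it was 1. SERPINB2, a serine protease inhibitor (PAI-2), was at 130, 111, 22.9 and 25.1 CPM without siFOXA1 and at 41.6, 27.4, 41.9 and 45.7 CPM with it. It was high only with siZBED2-1 alone, so siFOXA1 moved it by -1.80 there and by 0.86 on siZBED2-2 (adjusted p of the difference 2.55e-05). IL24 was at 31.6, 21.5, 4.62 and 0.961 CPM without siFOXA1 and at 34.1, 21.0, 23.0 and 21.6 CPM with it. Among these 8 libraries IL24 was low only with siZBED2-2 alone, with changes of 0.06 on siZBED2-1 and 3.03 on siZBED2-2 (adjusted p 0.0381). In siControl IL24 was also low, at 2.08 and 3.39 CPM, and SERPINB2 was at 16.4 and 19.6 CPM.

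The other 3 followed the same arrangement. TXNIP, an inhibitor of thioredoxin, was at 214, 165, 98.6 and 94.5 CPM without siFOXA1 and at 66.3, 69.8, 84.9 and 72.7 CPM with it (-1.48 and -0.29, adjusted p 0.0441). The carboxypeptidase CPA4 was at 16.6, 18.5, 36.9 and 45.6 CPM without siFOXA1 and at 79.2, 63.2, 59.9 and 57.2 CPM with it (2.02 and 0.50, adjusted p 0.0303). TRIOBP, an actin-binding protein, was at 138, 143, 292 and 322 CPM without siFOXA1 and at 242, 233, 262.5 and 276 CPM with it (0.76 and -0.19, adjusted p 0.0381). For all 5 genes the ZBED2 siRNAs set the levels apart without siFOXA1, by log2 shifts (siZBED2-2 against siZBED2-1) of -2.31, -3.04, -0.97, 1.21 and 1.13. The shifts were smaller with siFOXA1, at 0.34, -0.30, 0.21, -0.28 and 0.18. In siControl TXNIP stood at 57.2 and 59.5 CPM and CPA4 at 49.1 and 49.9 CPM.

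**Figure D4:**
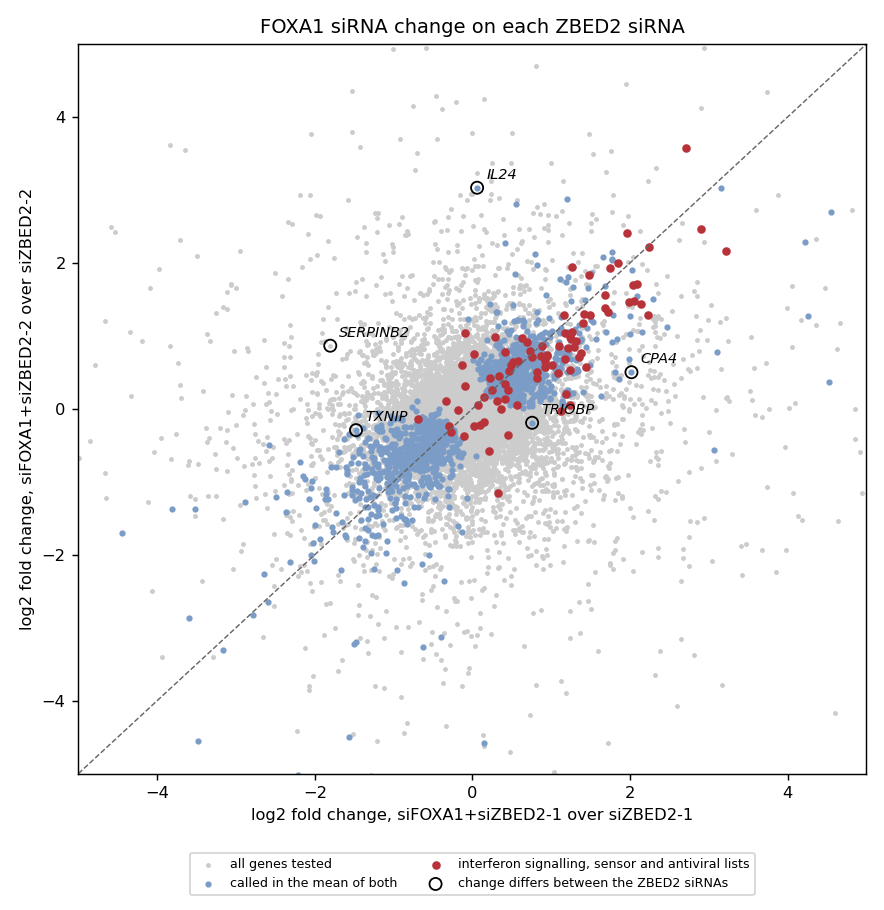
Log2 change with siFOXA1 on siZBED2-1 (x) and on siZBED2-2 (y) for each tested gene (1 point), with the 5 genes whose changes differed by the test circled; 183 genes lie outside the axes. Antiviral genes such as MX2 (3.14 as the mean of both) rise on both axes, whereas SERPINB2 (-1.80 and 0.86) and IL24 (0.06 and 3.03) lie off the diagonal.

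The same FOXA1 siRNA gave more calls in cells without a ZBED2 siRNA. Against siControl, 2341 genes (17.8%) changed, 1144 higher (8.71%) and 1197 lower (9.12%), from 2 libraries a side that share none with the 8 above. Of the 1331 genes called in ZBED2-depleted cells, 920 (69.1%, or 39.3% of the 2341) were also called against siControl, 914 in the same direction, and 1281 (96.2%) had the same sign. In the direction of the call, the 1331 had a median log2 change of 0.63 in ZBED2-depleted cells and 0.86 on siControl, and 927 (69.6%) had the larger same-sign change on siControl. A total of 217 genes were called in the same direction on siZBED2-1, on siZBED2-2 and on siControl, 119 higher and 98 lower. The remaining 411 of the 1331 (214 higher, 197 lower) were not called on siControl, which does not show that they differed.

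Tested directly, the change differed between ZBED2-depleted and siControl cells for 300 genes (2.29%), 141 with the higher value in ZBED2-depleted cells (1.07%) and 159 with the lower (1.21%). At an unadjusted p under 0.05 there were 1722. The replicate block gave 508, and leaving out siFOXA1 replicate 2, siControl replicate 2 or siControl replicate 1 gave 137, 171 and 183. Scaling by library size alone moved the split from 47 to 59.9% with the higher value in ZBED2-depleted cells. Without siZBED2-1 replicate 2 and siZBED2-2 replicate 2, the count was 184. By the labels, siFOXA1 added an siRNA in ZBED2-depleted cells but took the place of siControl otherwise. Reduced ZBED2 and the number of siRNAs thus cannot be told apart in these differences.

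**Figure D5:**
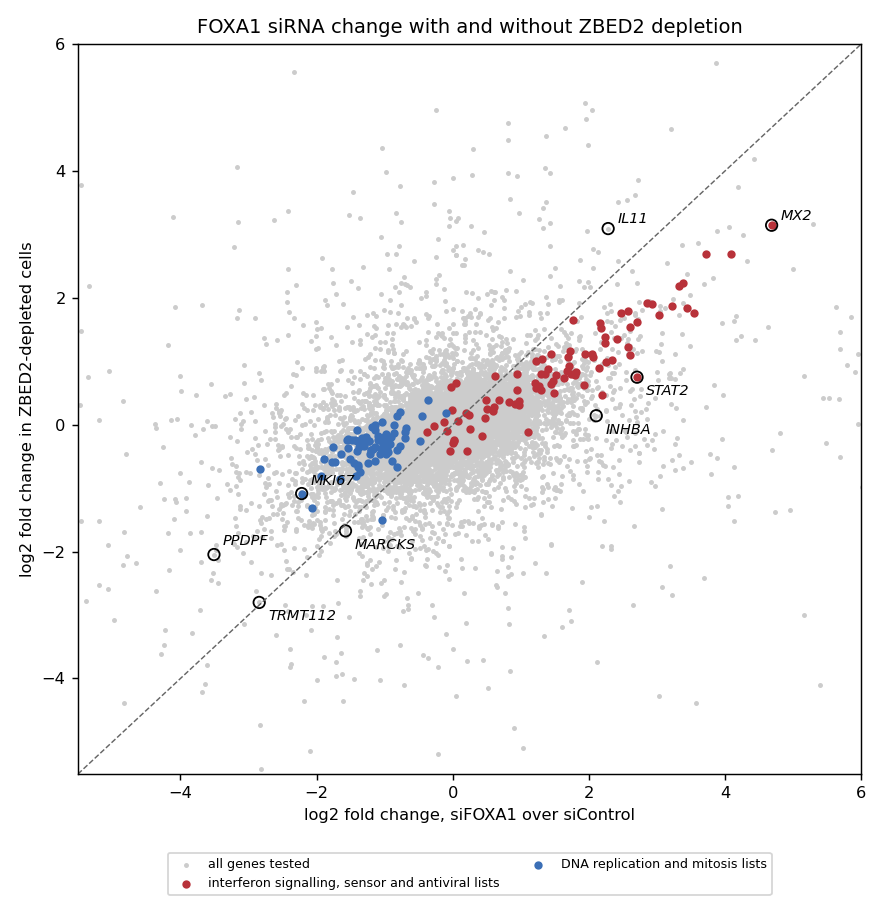
Log2 change with siFOXA1 on siControl (x) and in ZBED2-depleted cells (y) for each tested gene (1 point), with interferon list genes in red and replication and mitosis genes in blue; 65 genes lie outside the axes. TRMT112 lies on the diagonal (-2.84 and -2.80), whereas STAT2, INHBA and the blue genes lie nearer to 0 in ZBED2-depleted cells.

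Antiviral effectors rose in both settings but less in ZBED2-depleted cells. On siControl 48 of 52 were called higher, against 8.71% of all genes, with a median of 1.80. In ZBED2-depleted cells 51 of 52 had the lower signed change. The test of the difference was passed by 19, against 1.21% of all genes with the lower value. ISG15 stood at 304 and 321 CPM in siControl and at 1401 and 2310 CPM with siFOXA1 alone, and its change was smaller by 0.78 log2 units in ZBED2-depleted cells (difference -0.78, adjusted p = 0.018). IFIH1 reached 221 and 296.5 CPM with siFOXA1 alone (difference -1.09, adjusted p = 0.00248), and MX1 reached 578 and 808 CPM (difference -1.15, adjusted p = 0.0264). MX2 reached 112 and 160 CPM, and its difference of -1.54 did not pass the test (adjusted p = 0.0693).

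STAT2 also differed in the libraries without siFOXA1. It was at 21.2 and 18.2 CPM in siControl and at 35.6 to 42.6 CPM in the 4 libraries with a ZBED2 siRNA alone, so these 4 stood above both siControl libraries (a comparison not tested here). With siFOXA1 alone it was at 109 and 148 CPM, above the 49.8 to 83.7 CPM of the double knock-downs, and its change was smaller by the test (difference -1.96, SE 0.26, adjusted p = 2.2e-05). CD274 was at 3.40 and 5.59 CPM in siControl and at 24.1 and 32.7 CPM with siFOXA1 alone.

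The cell cycle lists fell further without a ZBED2 siRNA. On siControl 42 of 45 mitosis genes and 26 of 33 replication genes fell, against 9.12% of all genes. The list medians were -1.27 and -1.04. All 45 and 32 of 33 had the higher signed change in ZBED2-depleted cells. The test of the difference was passed by 23 and 7, against 1.07% of all genes with the higher value. Among the tested members, 2 mitosis and 4 replication genes had a change above 0 in ZBED2-depleted cells. Relative to siControl, the median mitosis gene stood at -1.13 and -1.39 with siFOXA1 alone. TOP2A, the topoisomerase that untangles DNA in mitosis, was at 1425 and 1267 CPM in siControl, at 605 and 430.5 CPM with siFOXA1 alone, at 855, 840, 1057 and 1128 CPM with a ZBED2 siRNA, and at 599, 606, 968 and 911 CPM with both (difference 1.02, adjusted p = 5.85e-05). Its libraries with siZBED2-1 and siFOXA1 lay near the upper siFOXA1-only library, and those with siZBED2-2 stayed higher. MYBL2, a mitotic transcription factor, was at 365 and 331 CPM in siControl, at 118 and 91.6 CPM with siFOXA1 alone, at 251, 242, 403.5 and 345 CPM with a ZBED2 siRNA, and at 151, 172, 256 and 246 CPM with both (difference 1.14, adjusted p = 0.000119). Promoters with TTTGAA made up 37.5% of the genes with the higher value in ZBED2-depleted cells (42 of 112) against 9.6% of those tested, and 8.93% held the E2F element TTTGGCGC or TTTCGCGC, against 2.02%. The replication and mitosis lists, called or not, held these in 39.39% and 15.15%.

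A smaller or opposite change in ZBED2-depleted cells was also found for INHBA, LAMB3 and ANKRD1. INHBA, a subunit of activin, was at 108 and 83.7 CPM in siControl and at 436 and 391 CPM with siFOXA1 alone. In ZBED2-depleted cells it was at 199, 210, 203 and 160 CPM without siFOXA1 and at 237, 196, 206 and 210 CPM with it, so the groups overlapped and its change of 0.14 did not pass the test (adjusted p = 0.446, difference adjusted p = 2.76e-08). LAMB3, a laminin chain, was at 257 and 265 CPM in siControl, at 758 and 879 CPM with siFOXA1 alone, at 588, 567, 388 and 382.5 CPM with a ZBED2 siRNA and at 713, 683, 578 and 621 CPM with both. ANKRD1, a target of the Hippo effector YAP, was at 79.3 and 93.6 CPM in siControl and at 168 and 184 CPM with siFOXA1 alone. It went the other way in ZBED2-depleted cells, from 136, 176.5, 70.2 and 92.7 CPM to 58.6, 80.6, 44.6 and 68.7 CPM, with overlap between groups (difference -1.87, adjusted p = 1.24e-05).

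Other genes fell by similar amounts in both settings. TRMT112 was at 793 and 869 CPM in siControl and at 107 and 124 CPM with siFOXA1 alone, and its difference was 0.04 (SE 0.14, adjusted p = 0.952). MARCKS was at 322 and 333 CPM in siControl and at 113 and 107 CPM with siFOXA1 alone (difference -0.10, SE 0.18, adjusted p = 0.896). NSA2 changed by -1.39 on siControl and by -1.19 in ZBED2-depleted cells (difference 0.20, SE 0.13). PPDPF did differ, reaching 36.7 and 27.45 CPM with siFOXA1 alone, a change of -3.51 against -2.05 (difference 1.46, adjusted p = 0.000149). Of the 12 leading lower genes 4 passed the test of the difference (PPDPF, PABPC4, ID1 and SLC39A6), and of the 12 leading higher genes 8 did, against 2.29% of all genes. A p that misses the threshold does not show that the changes were equal.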

How the data were processed

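RNA (RNeasy) was made into 3′ libraries (QuantSeq FWD), in which reads start near the polyadenylated end and do not grow with transcript length. Per the labels and the deposited settings, the authors trimmed reads with TrimGalore 0.6.2 (quality 20, minimum length 10) after raw-qc 2.1.0, mapped the single-end reads to hg38 with STAR 2.6.1a, and counted reads per gene on GENCODE 29 with automatic detection of the strand. Build hg19, named in the methods of the study, was not used because the deposited settings differ from it. The authors deposited raw counts per gene, used for every main test, and TPM values, whose length scaling does not suit 3′ reads and whose tool is not given in the sources used here, used for 1 alternative. No molecular identifiers were stated, so intervals and limits cover counting error only. Coordinates (1-based) and promoters come from RefSeq on GRCh38.p14.

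Groups, ZBED2 siRNA numbers and replicate numbers came from the labels. The 12 SCaBER libraries were fitted together with edgeR 4.0.16 in R 4.3.3 (TMM, filterByExpr with a minimum count of 10 and total of 15, quasi-likelihood F-test, 6 group means). The table held 58721 genes, of which 13129 passed the filter. The contrast was the mean of the siFOXA1 effects on siZBED2-1 and siZBED2-2. Genes with a Benjamini-Hochberg adjusted p under 0.05 over all tested genes were called. Log2 changes are those of the fit, and the SE is the change divided by the square root of F. The biological coefficient of variation was 21.6%. On simulated counts for this contrast with 13129 genes, 83% of 2-fold and 98% of 4-fold changes (100 genes each) were recovered, with 5.73% false calls. The changed genes were drawn only from those with higher counts, and the simulated spread depended on the level alone. Recovery of genes with few reads, or with a wider spread, was thus not measured. Replicate pairs differed by more than counting noise (chi-square per gene 5.95 to 9.24), so none was a copy.

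The genes given by name were FOXA1 and ZBED2, the 12 called genes per direction with the smallest p among those at least 2-fold and without overlap, up to 4 called members per list and direction with the largest change (the rest of short lists, uncalled defining members, FOXA2 and IFNL1 were added with values seen), the 5 smallest p per direction of each test of a difference, and STAT2, IRF9 and CD274, which the study describes. A few genes that these rules name are not reported here. Members and lists were chosen with earlier results of these data known. By the labels the replicate number marks an experiment batch, which pairs libraries of equal number. Deviations of equal-numbered libraries correlated at 0.00959 to 0.0354. Alternatives were RLE factors, library size alone, no filter, the replicate block, DESeq2 1.42.0, limma 3.58.1 on log2(TPM + 1), fits of the 8 libraries alone, and leaving out each library. The siRNA sequences were not used here.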

Additional observations from a re-analysis of the deposited data

Results flagged for a closer look

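In each of the following genes the size of the siFOXA1 change differed between settings by the test of the difference itself (edgeR, adjusted p under 0.05), taken from the 5 with the smallest p per direction. Between ZBED2 siRNAs (siZBED2-2 minus siZBED2-1, log2), the differences were 2.67 for SERPINB2, 2.97 for IL24, 1.18 for TXNIP, -1.52 for CPA4 and -0.95 for TRIOBP. These 5 are all that were called, and the ZBED2 siRNAs also differed in how much ZBED2 they left, which cannot be told apart from other effects of either siRNA.

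Between ZBED2-depleted and siControl cells (ZBED2-depleted minus siControl, log2), the differences were -1.97 for INHBA, -1.19 for LAMB3, -1.87 for ANKRD1 and -1.96 for STAT2. In the other direction they were 1.09 for RPS2 (adjusted p = 2.28e-06), 1.23 for the histone gene HIST1H4C (4.92e-05), 1.02 for TOP2A, 1.14 for MYBL2 and 1.46 for PPDPF. RPS2 has many processed pseudogenes that can take part of its reads, so its value is uncertain. Groups of 2 libraries are too small for a test of single outlying libraries, and none was made.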

How the results depend on the processing

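Each group held 2 libraries, so the spread was pooled over 6 groups and a lone library left after leaving one out was assumed to vary like the others. Genes with few reads, FOXA1 among them, were limited by depth.

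The 1331 calls became 670 with limma on TPM (41.5% higher, against 51.7%), 582 in the 8 libraries with no ZBED2 siRNA term, 670 without the siZBED2 libraries of replicate 2 (chosen after seeing the data), and 793 to 1041 with 1 library left out. The 8 libraries alone with the ZBED2 siRNA as a block gave 1251, 1212 of them shared (91.1%). On siZBED2-1 the 759 became 237 on TPM (33.8% higher, against 52.8%), 273 without the siZBED2 libraries of replicate 2, and 249 to 417 with 1 left out. On siZBED2-2 the 398 became 641 with the replicate block, 101 on TPM, 157 without those libraries, and 165 to 222. The 5 differences between ZBED2 siRNAs became 31 with no filter, 32 with the replicate block, 25 with DESeq2, 2 on TPM, 1 without those libraries, and 1 to 3. The 300 differences from siControl became 508 with the replicate block, 464 with DESeq2, 31 on TPM (64.5% with the higher value in ZBED2-depleted cells, against 47%), 184 without those libraries, and 137 to 363. On siControl, the calls ran from 1608 to 1930 with 1 library left out, with 31.2% higher on TPM against 48.9%. ZBED2 itself, not called, turned from -0.52 to 0.24 (adjusted p = 0.808) without the siZBED2 libraries of replicate 2. The replicate block moved no other comparison's count by over 1.5 times, and gave 8 replication genes against 5. With no ZBED2 siRNA term, 3 mitosis and 2 replication genes were called, and 11 mitosis genes on TPM. Among the genes given by name, with settings other than leaving 1 library out, 1205 gene-by-setting values kept their side of the threshold and direction, 148 lost the call and 1 turned. With 1 library left out, 960 kept it and 200 lost the call. The cause of these shifts was not tested.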
